A study of Homo sapiens with 8 samples.

Results

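The genes described here are the 10 members of the MYC-MAX network and its metabolic branch that were chosen by name: MYC, MAX, MXD1, MXD3, MXD4, MXI1, MNT, MLX, MLXIP and TXNIP. They are 10 of the 23393 gene symbols in the deposited count table, and all 10 were among the 15262 genes with enough reads to be tested. MYC is a transcription factor of the helix-loop-helix leucine zipper class that drives growth, ribosome production and metabolism, and it binds DNA only together with its partner MAX. The proteins of MXD1, MXD3, MXD4, MXI1 and MNT compete for MAX and repress the same kind of site, the E-box CACGTG. In the sister branch, MLX pairs with MLXIP (also called MondoA), a factor that enters the nucleus when glucose 6-phosphate rises and whose best-known target is TXNIP, an α-arrestin that lowers glucose uptake and binds thioredoxin.

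RNA was sequenced from MDA-MB-231 cells, an established human breast cancer line that makes little of the arginine-synthesizing enzyme ASS1 and therefore needs arginine from outside. The parental line was compared with ρ0 cells of clone 27, a single clone of the same line that the study's methods describe as depleted of mitochondrial DNA and kept with sodium pyruvate, uridine and ethidium bromide. Both were grown in high-glucose DMEM with fetal bovine serum and antibiotics, either as full growth medium (control) or with 0.3 µg/mL arginine deiminase (ADI), an enzyme that degrades arginine, for 48 h (arginine-starved). The labels name ADI in full growth medium, whereas the study's text speaks of arginine-starved medium for these cells, and which of them was used is not settled here. There were 2 libraries in each of the 4 groups, and the labels do not say whether they came from separate cultures, so the p-values measure the spread between libraries, which may be technical. Because the ρ0 cells are 1 clone with its own history of drug exposure, loss of mitochondrial DNA and the features of that clone cannot be told apart.

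Library totals ranged from 25259503 to 31022155 counts. The 2 ρ0 control libraries differed from each other far more than any other pair. The biological coefficient of variation is the relative standard deviation between replicates beyond counting noise. It was 25.1% for the ρ0 control pair and between 1.84% and 5.16% for the other 3 groups. This touches the 10 genes directly. Between the ρ0 control libraries, TXNIP was 1.67-fold and MYC 1.41-fold higher in replicate 2, whereas MXI1 was 1.51-fold, MNT 1.41-fold, MXD4 1.38-fold, MXD3 1.33-fold and MXD1 1.27-fold higher in replicate 1. In the other 3 groups no member differed by more than 1.10-fold between replicates. Of the 8 genes that mark mesenchymal-like breast cancer lines, none was at 0 in any library, but SPARC had only 2 and 1 counts in the parental starved libraries. Their summed levels were 4870 and 4910 CPM (counts of a gene per 1000000 counts of the library, after trimmed-mean scaling) in parental control, 2690 and 2680 CPM in parental starved, 7980 and 8640 CPM in ρ0 control and 6570 and 6420 CPM in ρ0 starved libraries. Of the 7 luminal genes, ESR1 was at most 0.18 CPM, whereas CDH1 was between 0 and 0.071 CPM in parental cells and 4.31 to 15.8 CPM in ρ0 cells, and FOXA1 was 7.34 to 9.82 CPM in parental cells and at most 0.135 CPM in ρ0 cells. The summed luminal genes were 79.4 and 81.9 CPM in parental control and 32.4 and 33.2 CPM in parental starved libraries. In ρ0 cells they were 181 and 174 CPM in control and 80.3 and 68.0 CPM in starved libraries. KRT19 made up much of this sum, at 44.37 and 46.58 CPM in parental control and 146.3 and 137.3 CPM in ρ0 control libraries. The sums of both sets moved with line and starvation, but their genes did not all move together. In full medium 3 of the 5 tested luminal genes were higher and 2 lower in ρ0 than in parental cells. After starvation 6 of the 8 mesenchymal genes were lower and 2 higher in parental cells. The part of these markers in the results was not tested. The 6 leukocyte and endothelial markers summed to 0.356 to 3.75 CPM, with CD3E at 0 throughout.

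Most of the 10 genes changed after arginine starvation in both lines, and in parental cells so did most of all tested genes. Levels are in CPM, differences are log2 fold changes with their standard error (SE), and tests are edgeR's quasi-likelihood test with Benjamini-Hochberg adjustment over all tested genes. A gene is said to rise or fall where the adjusted p is under 0.05, and to pass the fold limit where in addition the log2 fold change exceeds 1 in size. In parental cells 6 members rose and 2 fell, 8 of 10 where 65.9% of all tested genes changed, and 7 passed the fold limit where 34.9% of all tested genes did. In ρ0 cells 7 rose and 2 fell, 9 of 10 beside 41.3% of all tested genes, and 6 passed the fold limit beside 12.4%. Of these 9 calls, those of MLX and MLXIP ended when only the ρ0 libraries were fitted. In that fit 3127 of 14127 tested genes changed. The median log2 fold change of the members was 1.02 in parental and 0.92 in ρ0 cells, and that of all tested genes was -0.07 and -0.02. The members were chosen with results of these data known, so these counts are a description.

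**Figure D1:**
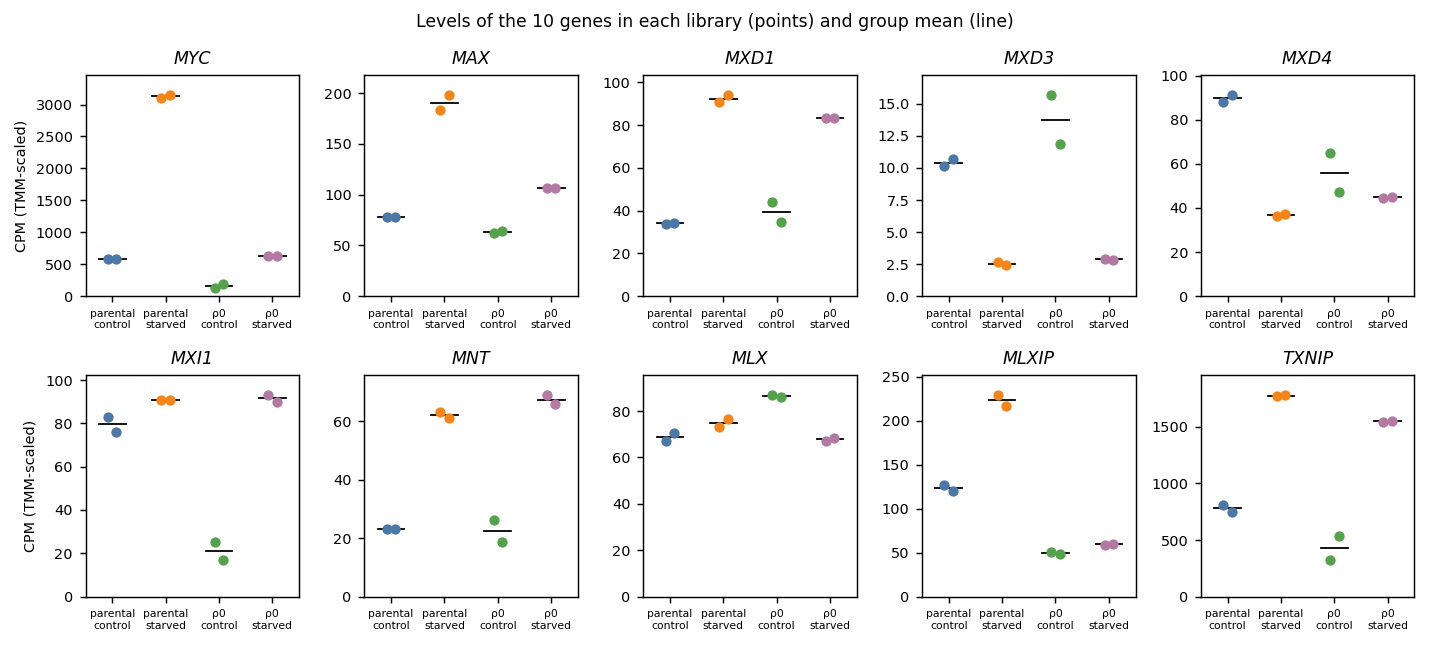
Levels of the 10 genes in CPM (vertical axes, linear, from 0) in each library (points, 2 per group) with the group mean (line), for parental control, parental starved, ρ0 control and ρ0 starved cells. MYC rose from 587.8 and 589.7 to 3102 and 3154 CPM in parental cells and stayed lower in ρ0 cells, and the 2 ρ0 control points lie furthest apart, as a ratio, for TXNIP and MXI1.

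MYC rose in both lines. It stood at 587.8 and 589.7 CPM in parental control libraries and at 3102 and 3154 CPM in parental starved libraries. Its level was 132.0 and 186.4 CPM in control and 633.5 and 637.3 CPM in starved libraries of ρ0 cells. The groups did not overlap in either line, and the starved ρ0 libraries lay just above the unstarved parental ones. The rise was 5.31-fold in parental cells (log2 fold change 2.41, SE 0.154, adjusted p = 1.71e-05) and 3.99-fold in ρ0 cells (1.997, SE 0.153, adjusted p = 0.000182). The difference between the responses, ρ0 minus parental, was -0.41 (95% interval -0.90 to 0.07, adjusted p = 0.153), so a different fold response of MYC in the 2 lines was not shown. Without ρ0 control replicate 1 this difference was -0.64 and without replicate 2 it was -0.17, so its size rests on these libraries. Either fit takes its spread from the other groups, so its test is not read here. MYC was 3.70-fold lower in ρ0 than in parental cells in full medium (-1.89, SE 0.152, adjusted p = 3.86e-05) and 4.92-fold lower when both were starved (-2.30, SE 0.154, adjusted p = 1.35e-05).

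The 2 MYC paralogs were rare beside MYC. MYCN, best known from neuroblastoma, had 117 and 94 counts in parental control, 3 and 2 in parental starved and 0 in all 4 ρ0 libraries. Against a floor of 3 counts per library, this is at least 30.1-fold lower in starved than in control parental cells and at least 33.8-fold lower in ρ0 than in parental control cells. MYCL had 173 and 169 counts in parental control, 105 and 117 in parental starved, 9 and 19 in ρ0 control and 16 and 22 in ρ0 starved libraries. Its response did not pass the test in parental (-0.41, adjusted p = 0.191) or ρ0 cells (0.61, adjusted p = 0.248), and it was 11.8-fold lower in ρ0 than in parental cells in full medium (-3.56, SE 0.322, adjusted p = 6.63e-05).

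MAX, the shared partner, rose with MYC but by less. Its level went from 78.22 and 77.98 CPM to 183.0 and 198.5 CPM in parental cells, and from 62.76 and 63.90 CPM to 107.0 CPM in both starved libraries of ρ0 cells. The replicates lay close together in every group. The rise was 2.44-fold in parental cells (1.29, SE 0.0749, adjusted p = 1.31e-05) and 1.69-fold in ρ0 cells (0.76, SE 0.0746, adjusted p = 0.000387), and the responses differed by -0.53 (SE 0.105, adjusted p = 0.00704). MAX was 1.78-fold lower in starved ρ0 than in starved parental cells (-0.83, SE 0.0742, adjusted p = 5.16e-05). MGA, a large protein that also pairs with MAX and works in a repressive complex, rose in parental (1.46, SE 0.0947, adjusted p = 1.79e-05) and in ρ0 cells (0.84, SE 0.094, adjusted p = 0.000612), with a difference of -0.62 (adjusted p = 0.00921; 0.0515 without parental starved replicate 1).

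**Figure D2:**
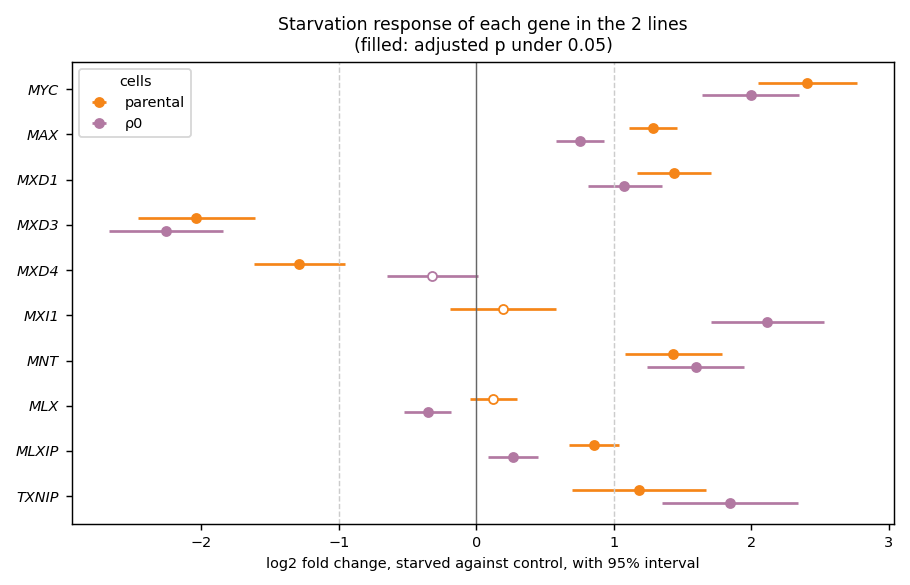
Log2 fold change of each gene on starvation (horizontal axis) in parental and ρ0 cells, with 95% intervals from the fit over 8 libraries. Filled points have an adjusted p under 0.05 and dashed lines mark the fold limit of 1. MYC, MXD1, MNT and TXNIP lie past the limit on the right and MXD3 on the left in both lines, while MXI1 does so only in the ρ0 fit and MXD4 and MAX only in the parental fit.

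The 5 MAX-binding repressors did not move as one. MXD1 and MNT rose and MXD3 fell in both lines, MXI1 rose in ρ0 cells, and MXD4 fell in parental cells. MXD1, first described as a gene of differentiating cells, was 33.94 and 34.28 CPM in parental control and 90.57 and 94.18 CPM in parental starved libraries. The ρ0 values were 44.16 and 34.86 CPM in control and 83.45 and 83.34 CPM in starved libraries. The rise was 2.71-fold in parental (1.44, SE 0.115, adjusted p = 3.96e-05) and 2.11-fold in ρ0 cells (1.078, SE 0.114, adjusted p = 0.000504), and the difference between the responses did not pass the test (-0.36, 95% interval -0.73 to 0.02, adjusted p = 0.113).

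MNT, the repressor present in most cell types, rose in both lines. It was 23.03 and 22.96 CPM in parental control and 63.32 and 61.08 CPM in parental starved libraries, and 26.09 and 18.52 CPM in ρ0 control and 69.01 and 65.90 CPM in ρ0 starved libraries. The control groups of the 2 lines overlapped. MNT rose 2.70-fold in parental (1.44, SE 0.151, adjusted p = 0.00013) and 3.03-fold in ρ0 cells (1.60, SE 0.152, adjusted p = 0.000342). The responses differed by 0.16 (95% interval -0.33 to 0.66, adjusted p = 0.574).

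MXD3, the member linked to the S phase of the cell cycle, was the lowest of the 10 after starvation. It fell from 10.13 and 10.66 CPM to 2.653 and 2.410 CPM in parental cells and from 15.71 and 11.83 CPM to 2.907 and 2.858 CPM in ρ0 cells. Every starved library was below every control library. The level was 4.11-fold lower in starved parental (-2.04, SE 0.181, adjusted p = 6.05e-05) and 4.77-fold lower in starved ρ0 cells (-2.25, SE 0.178, adjusted p = 0.000197), and the responses differed by -0.22 (95% interval -0.81 to 0.37, adjusted p = 0.527). In the GENCODE annotation 731 exonic bases of MXD3 lie opposite those of PRELID1, and whether the counting used strand is not given in the sources used here, so reads of the pair may be mixed. PRELID1, a mitochondrial lipid transfer protein gene, averaged 46.9 CPM in parental control and 84.2 CPM in parental starved cells, 54.3 CPM in ρ0 control and 48.9 CPM in ρ0 starved cells, and rose where MXD3 fell in parental cells (0.85, adjusted p = 0.00298).

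MXD4 and MXI1 were the repressors whose responses differed between the lines. MXD4 was 87.96 and 91.32 CPM in parental control and 36.27 and 37.22 CPM in parental starved libraries, a 2.44-fold lower level (-1.29, SE 0.143, adjusted p = 0.000168). The ρ0 levels were 64.84 and 47.02 CPM in control and 44.54 and 45.02 CPM in starved libraries (-0.32, SE 0.142, adjusted p = 0.109). The spread of the ρ0 control pair was wide beside this difference, which was -0.52 without control replicate 2. The responses differed by 0.97 (SE 0.2, adjusted p = 0.00835).

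MXI1, also named MXD2, is a MAX partner known as a target of hypoxia-inducible factors. It was 82.87 and 76.17 CPM in parental control and 90.84 and 90.99 CPM in parental starved libraries. In ρ0 cells it was 25.39 and 16.82 CPM in control and 93.14 and 89.92 CPM in starved libraries. The ρ0 control group thus stood apart below the other 3 groups, and the starved groups of the 2 lines overlapped. The response was 0.19 in parental cells (SE 0.165, adjusted p = 0.333) and 4.34-fold in ρ0 cells (2.12, SE 0.175, adjusted p = 0.000218), a difference of 1.92 (SE 0.238, adjusted p = 0.00125). MXI1 was 3.77-fold lower in ρ0 than in parental cells in full medium (-1.92, SE 0.174, adjusted p = 6.69e-05), and the lines differed by 0.01 when starved (95% interval -0.38 to 0.40, adjusted p = 0.964).

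Across the 10 genes, 5 differed between the lines in their response, 2 upwards (MXI1 and MXD4) and 3 downwards (MAX, MLX and MLXIP), beside 40.4% of all tested genes, a share near that of the members. The count depends on which libraries enter, and so does the count over all tested genes, because the fit then takes its spread from the libraries that remain. A change of the count is therefore not read as a change in the members. The comparison uses the control libraries of both lines, so it shares them with each response.

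In the glucose-sensing branch, MLXIP rose in both lines and MLX fell slightly in ρ0 cells. MLX stayed between 67.04 and 86.93 CPM in all 8 libraries, highest in the ρ0 controls. Its response was 0.12 in parental cells (SE 0.073, adjusted p = 0.172), it fell by 0.35 on the log2 scale in ρ0 cells (SE 0.073, adjusted p = 0.0076), and the responses differed by -0.48 (SE 0.103, adjusted p = 0.01), a call that ended without parental starved replicate 2 (adjusted p = 0.0636) or ρ0 starved replicate 1 (adjusted p = 0.0546). The ρ0 call ended when only the ρ0 libraries were fitted (adjusted p = 0.0742) and without either ρ0 starved library (adjusted p = 0.0881 and 0.0727). MLX shares 770 exonic bases with PSMC3IP, a meiotic recombination gene on the opposite strand, which averaged 7.43 CPM in parental control, 9.92 CPM in parental starved, 19.7 CPM in ρ0 control and 12.3 CPM in ρ0 starved cells. Both genes were highest in the ρ0 controls, and reads of the pair may be mixed.

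MLXIP was 127.3 and 119.7 CPM in parental control and 229.3 and 217.2 CPM in parental starved libraries, a 1.81-fold rise (0.85, SE 0.0775, adjusted p = 6.69e-05). In ρ0 cells it was 51.03 and 48.01 CPM in control and 59.08 and 60.10 CPM in starved libraries, a 1.20-fold rise (0.27, SE 0.0786, adjusted p = 0.0299) that did not pass the test when only the ρ0 libraries were fitted (adjusted p = 0.12) or without either ρ0 starved library (adjusted p = 0.125 and 0.146). All 4 ρ0 libraries were below all 4 parental ones. The responses differed by -0.59 (SE 0.11, adjusted p = 0.00585). MLXIP was 2.49-fold lower in ρ0 cells in full medium (-1.32, SE 0.079, adjusted p = 1.07e-05) and 3.75-fold lower when starved (-1.91, SE 0.0801, adjusted p = 2.01e-06). Its paralog MLXIPL (ChREBP), the glucose-responsive factor of liver and fat, had only 22 to 112 counts per library. It fell by 1.87 on the log2 scale in parental cells (SE 0.357, adjusted p = 0.00244). In starved ρ0 cells it was 0.57 higher without passing the test (adjusted p = 0.232). The responses differed by 2.45 (SE 0.503, adjusted p = 0.00811). Without ρ0 control replicate 1 this difference was 3.11 and the ρ0 response was 1.23.

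**Figure D3:**
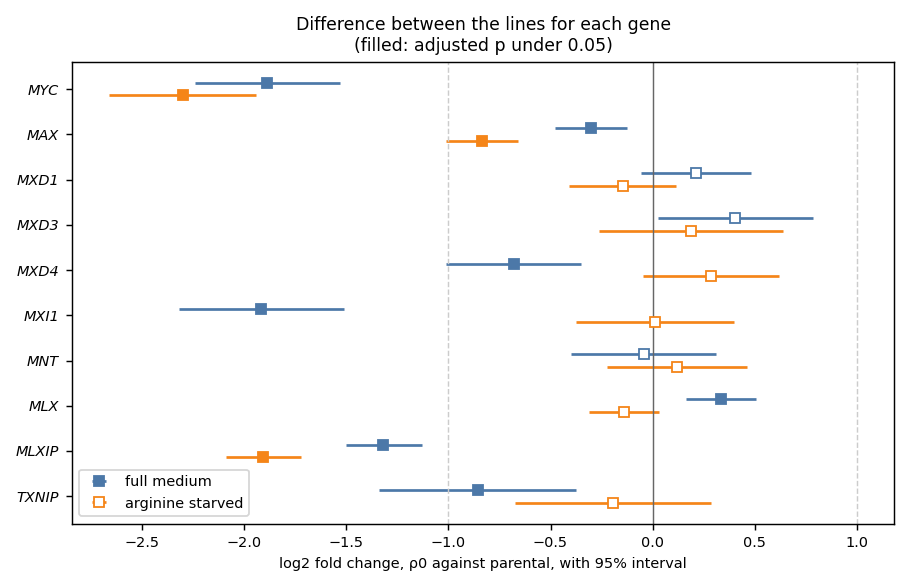
Difference between the lines for each gene as log2 fold change, ρ0 against parental (horizontal axis), in full medium and after starvation, with 95% intervals. Filled squares have an adjusted p under 0.05. MYC and MLXIP lie left of -1 in both media, and MXI1 does so in full medium while it lies at 0.01 after starvation.

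Between the lines in full medium, 6 members were lower in ρ0 cells (MYC, MXI1, MLXIP, TXNIP, MXD4 and MAX) and MLX was higher, 7 of 10 beside 62.3% of all tested genes, and 3 passed the fold limit (MYC, MXI1 and MLXIP) beside 30.9%. With a separate weight for each group, the calls of MAX (adjusted p = 0.139) and MLX (adjusted p = 0.0634) ended. These shares are near those of all tested genes. In starved cells 3 members were lower in ρ0 cells (MYC, MAX and MLXIP) and none higher, beside 66.5% of all tested genes, and 2 passed the fold limit (MYC and MLXIP) beside 35.5%. The other 7 members (MXD1, MXD3, MXD4, MXI1, MNT, MLX and TXNIP) did not pass the test when starved, with differences between -0.20 and 0.29. These tests share their estimate of spread with all 8 libraries, the wide ρ0 control pair included, so equal levels were not shown. The starved libraries of the 2 lines overlapped for MXI1 but not for the rest of these 7.

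TXNIP rose in both lines. It was 810.3 and 751.8 CPM in parental control and 1771 and 1783 CPM in parental starved libraries. The ρ0 libraries held 323.2 and 539.2 CPM in control and 1547 and 1556 CPM in starved libraries. No control library reached a starved one, and the 2 ρ0 control values were far apart while the ρ0 starved values nearly coincided. The rise was 2.28-fold in parental (1.19, SE 0.208, adjusted p = 0.00163) and 3.60-fold in ρ0 cells (1.85, SE 0.212, adjusted p = 0.000672). The difference between the responses was 0.66 (95% interval -0.02 to 1.34, adjusted p = 0.109). Without ρ0 control replicate 1 it was 0.34 and without replicate 2 it was 1.05. TXNIP was 1.81-fold lower in ρ0 than in parental cells in full medium (-0.86, SE 0.207, adjusted p = 0.00828), a call that ended without parental control replicate 1 (-0.80, adjusted p = 0.0527), and the lines differed by -0.20 when starved (95% interval -0.68 to 0.28, adjusted p = 0.425).

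The promoter of TXNIP is shown because MLXIP and MLX are known to act on it through a carbohydrate response element, a pair of E-box-like motifs, and that of ARRDC4, its closest relative and another known target of MLXIP, because it rose with it. The capitals mark the motifs that were searched: 2 copies of CACGNG (N being any base) on one strand with 5 bases between them in TXNIP, and CACGTG in ARRDC4. Sequences are from RefSeq (GRCh38.p14), 5′ to 3′ on the gene's strand. The TXNIP stretch lies on the minus strand at chr1:145996580-145996699 and ends just before the start of transcription, and that of ARRDC4 on the plus strand at chr15:97960466-97960525.
TXNIP: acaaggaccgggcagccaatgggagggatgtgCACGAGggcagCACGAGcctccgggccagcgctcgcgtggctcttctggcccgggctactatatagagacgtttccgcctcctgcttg
ARRDC4: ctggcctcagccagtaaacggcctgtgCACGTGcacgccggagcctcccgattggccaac
The pair in TXNIP spans bases 88 to 72 before the start, and the motif in ARRDC4 bases 210 to 205 before it. Such a same-strand pair with this spacing was found in 20 of 35116 promoter windows, 0.057%, each window running from 250 bases before to 50 bases after a start. Of the 9 members with an entry, TXNIP was the only one with the pair, at 1 of its 2 listed starts. CACGNG on either strand occurred in 30.5% of all windows. Among the genes named below for following MYC or TXNIP, HSPBAP1, which followed MYC, had the pair in 1 window. No pair was found for ETS1, MAFF and MLLT6, the nearest to TXNIP, or for RBM38 and NMD3. These letters are a description of the windows and not a measure of binding.

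**Figure D4:**
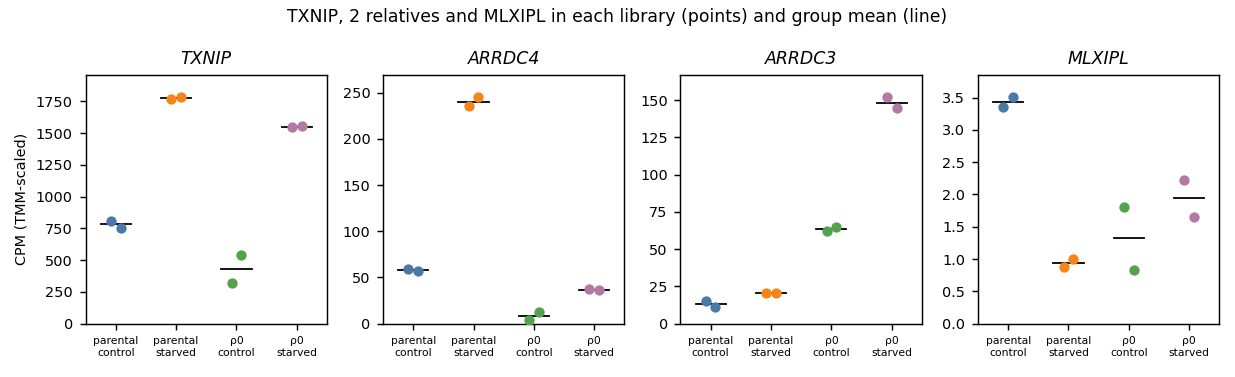
Levels in CPM (vertical axes, linear, from 0) of TXNIP, its relatives ARRDC4 and ARRDC3, and MLXIPL in each library (points, 2 per group) with the group mean (line). The 3 α-arrestins are higher in both starved groups than in the control group of the same line, and ARRDC4 and ARRDC3 differ between the lines in opposite directions.

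ARRDC4, which like TXNIP restrains glucose uptake, rose in both lines. It was 58.67 and 56.69 CPM in parental control and 235.3 and 245.2 CPM in parental starved libraries, and 4.302 and 12.03 CPM in ρ0 control and 37.21 and 36.41 CPM in ρ0 starved libraries. The log2 fold change was 2.06 in parental (SE 0.341, adjusted p = 0.00121) and 2.17 in ρ0 cells (SE 0.366, adjusted p = 0.00323). Its ρ0 control replicates differed in the same direction as those of TXNIP. The ρ0 response was 1.615 without ρ0 control replicate 1 and 3.11 without replicate 2. ARRDC4 was 7.03-fold lower in ρ0 than in parental cells in full medium (-2.81, SE 0.369, adjusted p = 0.000416), and this difference was -2.26 without ρ0 control replicate 1 and -3.69 without replicate 2. Of the 4 tested relatives of TXNIP in the α-arrestin family, 3 rose in parental and 4 in ρ0 cells. Among all 15262 tested genes, 4637 rose in parental and 2937 in ρ0 cells, while 65.9% and 41.3% changed in either direction. ARRDC2 rose by a log2 fold change of 1.001 in parental and 0.78 in ρ0 cells, and ARRDC3, a regulator of receptor traffic, by 0.67 and 1.22 (adjusted p = 0.000149, 0.00141, 0.00437 and 0.000602 in that order). ARRDC3 was higher in ρ0 than in parental cells, by 2.30 in full medium (SE 0.145, adjusted p = 1.31e-05).

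Of the 5 genes widely described as raised by MLXIP or MLXIPL, 3 could be tested (ARRDC4, ARRDC3 and KLF10), and all 3 rose in both lines. Among all 15262 tested genes, 4637 rose in parental and 2937 in ρ0 cells. The median log2 fold change of the 3 genes was 2.06 in parental and 1.34 in ρ0 cells. KLF10, a zinc finger factor that also responds to TGF-β, went from 49.44 and 45.85 CPM to 519.8 and 547.5 CPM in parental cells (3.49, SE 0.202, adjusted p = 1.3e-05). In ρ0 cells it went from 67.06 and 105.1 CPM to 218.5 and 218.3 CPM (1.34, SE 0.186, adjusted p = 0.00142), a response lower by 2.14 on the log2 scale (adjusted p = 0.00122).

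Genes around TXNIP's protein moved in both directions. Of 10 genes of the thioredoxin system and of described TXNIP partners, 4 rose and 4 fell in parental cells and 5 rose and 4 fell in ρ0 cells, beside 65.9% and 41.3% of all tested genes that changed. Without either ρ0 starved library the ρ0 count was 2 rises and 2 falls. NLRP3, the inflammasome sensor, was 26.89 and 27.20 CPM in parental control and 2.376 and 2.340 CPM in parental starved libraries (-3.52, SE 0.171, adjusted p = 9e-06), and at most 1.596 CPM in ρ0 cells (-1.76, SE 0.247, adjusted p = 0.00148). MAP3K5 (ASK1), a stress kinase held by thioredoxin, fell from 40.68 and 39.35 CPM to 7.841 and 8.117 CPM in parental cells (-2.33, SE 0.19, adjusted p = 4.31e-05) and rose from 15.13 and 9.905 CPM to 19.47 and 19.59 CPM in ρ0 cells (0.64, SE 0.183, adjusted p = 0.0264), a call that ended without either ρ0 starved library (adjusted p = 0.108). The responses of MAP3K5 differed by 2.97 (SE 0.263, adjusted p = 0.000416). ITCH, the ubiquitin ligase of TXNIP, rose by 1.06 in parental and 0.48 in ρ0 cells (adjusted p = 3.77e-05 and 0.00356), and TXNRD3, the rarest of the 3 thioredoxin reductase genes, fell by 1.43 and 1.16 on the log2 scale (adjusted p = 0.000325 and 0.00325). The other reductase genes, named after their values were seen, did not fall with it: TXNRD1, the abundant cytosolic form, went from 376.4 and 359.8 CPM to 546.9 and 568.1 CPM in parental cells (0.60, SE 0.141, adjusted p = 0.00678) and from 444.5 and 612.6 CPM to 1026 and 1036 CPM in ρ0 cells (0.96, SE 0.142, adjusted p = 0.00181). TXNRD2, the mitochondrial form, rose in parental cells (0.85, SE 0.183, adjusted p = 0.00458) and had a log2 fold change of -0.16 in ρ0 cells (adjusted p = 0.547).

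Of 6 glucose transporters and enzymes next to glucose 6-phosphate, 1 rose and 2 fell in parental cells, and 4 rose and 2 fell in ρ0 cells. That is 3 and 6 of 6, where 65.9% and 41.3% of all tested genes changed. The median log2 fold change was -0.02 and 0.36. Without either ρ0 starved library the ρ0 count was 2 rises and 1 fall. SLC2A3 (GLUT3), a high-affinity glucose transporter, was 72.58 and 66.52 CPM in parental control and 68.87 and 69.37 CPM in parental starved libraries, where the groups overlapped (-0.01, adjusted p = 0.936). In ρ0 cells it went from 88.11 and 78.24 CPM to 273.4 and 267.7 CPM (1.70, SE 0.0891, adjusted p = 5.44e-05), and the responses differed by 1.71 (SE 0.124, adjusted p = 0.000232).

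Windows with the E-box CACGTG itself were found in 3 of the 9 members with an entry, MNT, MXD4 and MLX, and in 7.26% of all 35116 windows. The first is a count of genes and the second a share of windows, and MXI1 has 3 windows, MAX 2 and TXNIP 2. The E-box stretches are shown because MNT, MXD4 and MLX differ in response although they share the motif. MNT rose in both lines, MXD4 fell in parental cells and MLX changed by no more than 0.35 on the log2 scale. The capitals mark CACGTG, which reads the same on both strands. The stretches lie at chr17:2401221-2401280 on the minus strand for MNT, chr4:2262300-2262359 on the minus strand for MXD4 and chr17:42567023-42567082 on the plus strand for MLX (RefSeq, GRCh38.p14).
MNT: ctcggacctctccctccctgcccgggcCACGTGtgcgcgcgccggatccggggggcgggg
MXD4: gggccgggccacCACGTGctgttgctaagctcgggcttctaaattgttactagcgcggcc
MLX: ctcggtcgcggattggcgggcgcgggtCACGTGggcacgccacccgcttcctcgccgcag
The motif lies 193 to 188 bases before the start in MNT, 238 to 233 in MXD4 and 50 to 45 in MLX.

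Of the genes used as targets of MYC, those that changed in parental cells mostly rose, while in ρ0 cells about as many rose as fell. The list held 62 genes widely used as targets raised by MYC, most of them of the nucleolus and ribosome production, of which 61 were tested. In parental cells 36 rose and 7 fell, 43 of 61 beside 65.9% of all tested genes, of which 4637 rose and 5423 fell. Past the fold limit 20 of the list rose and 3 fell. That is 23 of 61, near the 34.9% of all tested genes, of which 1940 rose and 3380 fell. The median log2 fold change of the list was 0.82. RRP12, a ribosome export factor, went from 92.61 and 96.56 CPM to 492.1 and 478.6 CPM (2.36, SE 0.308, adjusted p = 0.000371), and RABEPK, a Rab9 effector, from 25.99 and 25.77 CPM to 107.3 and 115.2 CPM (2.10, SE 0.22, adjusted p = 0.000125). The largest falls were of the mitotic kinase PLK1 (-2.89, SE 0.246, adjusted p = 5.1e-05) and of the kinase MAP3K6 (-2.86, SE 0.157, adjusted p = 1.14e-05).

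In ρ0 cells 11 genes of this list rose and 10 fell, 21 of 61 beside 41.3% of all tested genes, with a median of 0.13; without either ρ0 starved library 4 rose and 6 fell. ODC1, the rate-limiting enzyme of polyamine synthesis and a classic MYC target, rose from 107.0 and 250.3 CPM to 597.3 and 584.5 CPM (1.73, SE 0.33, adjusted p = 0.00538), beside 1.91 in parental cells (SE 0.331, adjusted p = 0.00153) and a difference of -0.19 (adjusted p = 0.775). Without ρ0 control replicate 2 its ρ0 response was 2.48. DUSP2, a phosphatase of MAP kinases, was listed at 0 in the 4 parental libraries and had 4 and 18 counts in ρ0 control and 73 and 62 in ρ0 starved libraries (2.77, adjusted p = 0.0105). Its log2 fold change was 2.11 without ρ0 control replicate 1 and 4.15 without replicate 2, and the call ended without either ρ0 starved library (adjusted p = 0.0628). The replication helicase gene MCM5 (-2.45, SE 0.17, adjusted p = 0.000144) and PLK1 (-2.24, SE 0.24, adjusted p = 0.00053) fell.

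This comparison rests on the ρ0 control libraries. Of the 61 genes, 57 (93.4%) were higher in ρ0 control replicate 2 than in replicate 1, with a median log2 difference of 0.75, whereas 49.6% of all tested genes were higher, and MYC was higher in the same library. Without ρ0 control replicate 1, 18 genes of the list rose and 33 fell in ρ0 cells with a median of -0.17; without replicate 2, 44 rose and 10 fell with a median of 0.54. The direction of the list in ρ0 cells therefore turned with the control library used. The responses of the list differed between the lines in 26 of 61 genes, a share near the 40.4% of all tested genes; 24 of them were lower and 2 higher in ρ0 cells, beside 2872 lower and 3295 higher of all tested genes, and the median was -0.65. That count was 58 (54 lower) without ρ0 control replicate 1, 39 (34 lower) without replicate 2 and 3 to 5 without any one of the other libraries, while the median stayed between -0.94 and -0.33. In starved cells 40 of 61 genes of the list differed between the lines, near the 66.5% of all tested genes. Of these, 37 were lower and 3 higher in ρ0 cells, beside 5120 lower and 5024 higher of all tested genes. The median of the list was -0.67, and -0.69 to -0.62 without 1 starved library. These fold changes compare starved libraries, but the tests share their estimate of spread with all 8 libraries, the ρ0 control pair included. In full medium 11 were lower and 10 higher, 21 of 61 beside 62.3% of all tested genes, with a median of 0.00, which was 0.34 without ρ0 control replicate 1 and -0.41 without replicate 2.

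**Figure D5:**
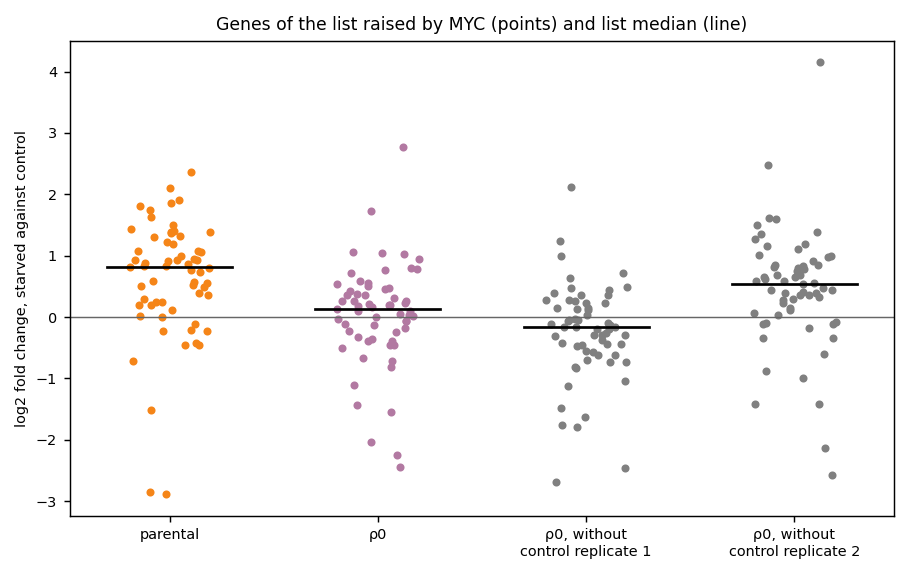
Log2 fold change on starvation (vertical axis) of the 61 tested genes raised by MYC (points, 1 per gene, spread sideways at random) and their median (line), in parental cells, in ρ0 cells with both control libraries, and in ρ0 cells without control replicate 1 or 2. The median is 0.82 in parental cells and 0.13, -0.17 and 0.54 in the 3 ρ0 fits.

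The genes widely described as lowered by MYC did not move together. Of 7 tested, 5 changed in each line, beside 65.9% of all tested genes in parental and 41.3% in ρ0 cells. In parental cells 2 rose and 3 fell with a median of -0.08, which ran from -0.33 to 0.06 without one or the other parental control library. In ρ0 cells 3 rose and 2 fell with a median of 0.47, and 2 rose and 1 fell without ρ0 starved replicate 1. GADD45A, a stress-induced growth arrest gene, went from 63.92 and 67.45 CPM to 709.3 and 704.2 CPM in parental cells (3.43, SE 0.197, adjusted p = 1.29e-05) and from 56.79 and 88.18 CPM to 344.9 and 318.7 CPM in ρ0 cells (2.19, SE 0.188, adjusted p = 0.000236). CDKN1A (p21), an inhibitor of cyclin-dependent kinases, rose by 2.004 in parental and 0.47 in ρ0 cells, and the responses differed by -1.53 (adjusted p = 8.19e-06, 0.00543 and 0.000335). CDKN2C (p18), of another inhibitor family, fell by 2.81 on the log2 scale in parental and 3.02 in ρ0 cells (adjusted p = 2.83e-05 and 0.000135). NDRG1, a gene of stress and differentiation, fell from 846.4 and 707.9 CPM to 79.91 and 78.09 CPM in parental cells (-3.30, SE 0.186, adjusted p = 1.21e-05) and was 307.2 and 211.2 CPM in ρ0 control and 318.0 and 310.0 CPM in ρ0 starved libraries (0.28, adjusted p = 0.231), a difference of 3.58 (SE 0.248, adjusted p = 0.000199). NDRG2, its relative, was at least 52.1-fold lower in starved than in control parental cells against the floor of 3 counts per library.

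Among 24 cofactors and enzymes that act on MYC protein, 8 rose and 9 fell in parental cells with a median of 0.10. In ρ0 cells 7 rose and 6 fell with a median of 0.06. That is 17 and 13 of 24, where 65.9% and 41.3% of all tested genes changed, so the parental share was near that of all genes. These counts moved with single libraries: 11 or 12 genes changed in parental cells without 1 of the 4 libraries, and in ρ0 cells 7 or 8 without starved replicate 1 or 2 and 18 without either control library. SKP2, a ubiquitin ligase subunit that acts on MYC, was 63.23 and 59.60 CPM in parental control and 11.13 and 12.26 CPM in parental starved libraries (-2.39, SE 0.158, adjusted p = 1.94e-05), and fell by 1.40 on the log2 scale in ρ0 cells (SE 0.152, adjusted p = 0.00055). AURKA, the mitotic kinase, fell by 2.38 in parental and 1.63 in ρ0 cells on the same scale (adjusted p = 8.86e-05 and 0.00141). PIM1, a kinase that works with MYC in lymphoma, rose in ρ0 cells from 50.06 and 35.21 CPM to 115.3 and 107.6 CPM (1.39, SE 0.156, adjusted p = 0.000612), with 0.31 in parental cells (adjusted p = 0.104).

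Per kilobase of the longest coding transcript, the scale on which levels of different genes can be set side by side, TXNIP and MYC had the highest mean levels of the 10 members in every group. In parental control cells TXNIP had 267 and MYC 249 CPM per kilobase, and in parental starved cells the order turned, with MYC at 1320 and TXNIP at 607. In ρ0 cells TXNIP led in both media, with 147 against 67.3 for MYC and 33.5 for MLX in control and 530 against 269 in starved cells. MLX (26.6), MAX (24.8), MXI1 (22.9) and MXD4 (22.1) formed the middle of the parental control order, MLXIP was at 14.7, and MXD1 (6.11), MNT (4.6) and MXD3 (4.58) were the lowest, with MNT and MXD3 nearly equal. In starved ρ0 cells MXI1 (26.4) and MLX (26.2 CPM per kilobase) came after MAX (33.9), and MXD3 was last at 1.27. No test was made between genes, and the order depends on which transcript is taken for the length.

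Over the 8 libraries, the genes whose log2 levels followed MYC most closely were HSPBAP1 (Pearson's r 0.999), RBM38 (0.999) and NMD3 (0.998), the last an export factor of the large ribosomal subunit. RBM38, an RNA-binding protein, averaged 68.4 CPM in parental control, 180 in parental starved, 28.1 in ρ0 control and 66.9 CPM in ρ0 starved cells. The nearest to TXNIP were ETS1 (0.991), MAFF (0.987) and MLLT6 (0.987). MAFF, a small MAF transcription factor, averaged 103 CPM in parental control, 379 in parental starved, 49.8 in ρ0 control and 268 CPM in ρ0 starved cells. These values describe 8 libraries that share line and treatment in groups of 2.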

How the data were processed

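Total RNA of 8 libraries was analysed, 2 for each of 4 groups taken from the labels. The authors deposited 1 table of raw gene counts, and its symbols were used as given. The submitters' processing notes name hg19, Bowtie and Partek. The annotation, the counting rule and its use of strand are not given in the sources used here. Counts were scaled by the trimmed mean of M values, genes were kept by edgeR's filterByExpr over the 4 groups (15262 kept), and edgeR 4.0.16 (R 4.3.3) quasi-likelihood tests came from a single model of the 8 libraries (a mean for each group), in which the groups share 1 estimate of spread (4 residual degrees of freedom; common biological coefficient of variation 12.4%) although the ρ0 control pair varied more. Values are relative to each library, and RNA per cell was not measured. In bulk RNA, a change in all cells and a change in the share of cells cannot be told apart.

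Contrasts were the starvation response of parental and of ρ0 cells, ρ0 response minus parental response (adjusted p only), and ρ0 against parental in each medium. The study states limits of q below 0.05 and a log2 fold change above 1 but no test. Named genes were the 10 members, 4 further network genes, ARRDC4, in each list the 2 largest rises and falls past both limits in either response, and the 3 genes most correlated with MYC and with TXNIP (log2 CPM, prior count 2). The members and lists were chosen with earlier results of these data known, so no list was tested. Some genes stand in more than 1 list. Alternatives were other normalizations and filters, limma 3.58.1 (voom), DESeq2 1.42.0, a replicate block and leaving out each library; list counts without each library were added after seeing the data. The code was tested on simulated data. Exon overlaps and transcript lengths came from GENCODE (GRCh38), promoters from RefSeq (GRCh38.p14), and no coordinates were converted between builds.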

Additional observations from a re-analysis of the deposited data

Results flagged for a closer look

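The response to starvation differed between the lines, by the test of the difference itself (ρ0 minus parental, log2 scale, edgeR), for MXI1 (1.92, adjusted p = 0.00125), MXD4 (0.966, adjusted p = 0.00835), MLXIP (-0.587, adjusted p = 0.00585), MAX (-0.531, adjusted p = 0.00704) and MLX (-0.475, adjusted p = 0.01). With 2 libraries per group no library could be tested as an outlier. MLX lost the call without parental starved replicate 2 (-0.44, adjusted p = 0.0636) or ρ0 starved replicate 1 (-0.48, adjusted p = 0.0546), and the reads it may share with PSMC3IP were not separated.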

How the results depend on the processing

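The number of members past the limits was 7, 6, 5, 3 and 2 in the parental response, the ρ0 response, the difference of responses and the line comparisons in full medium and when starved. Without the fold limit the line comparison in full medium gave 7 members, and leaving out 1 library at a time gave 4 to 8 members for the difference of responses (8 without either ρ0 control library). Over all genes that difference held 6167 calls, and 10277 or 9269 without ρ0 control replicate 1 or 2 but 3513 to 3952 without 1 of the other libraries; changes of any size in the ρ0 response numbered 6308, and 3127 with the ρ0 libraries alone, 3993 with group-weighted voom and 3169 to 9784 without 1 library; calls between the lines in full medium fell from 4718 to 2876 with at least 10 counts in every library. Upper quartile scaling and total counts moved the median of all genes in the parental response from -0.07 to -0.19 and -0.23. Of the members' values under the alternatives, 683 kept direction and side of the threshold, 26 passed it newly, 16 lost it and 5 changed sign. With group-weighted voom, the difference of responses passed for MYC (-0.39, adjusted p = 0.0377) and TXNIP (0.70, adjusted p = 0.00248), and the full-medium calls of MAX (-0.30, adjusted p = 0.139) and MLX (0.33, adjusted p = 0.0634) ended. When 1 library was left out, the lone library was assumed to vary like the other groups. The replicate numbers did not pair the samples (correlations of same-numbered deviations from -0.053 to 0.0386), and the replicate block gave 7, 6, 5, 3 and 2 members as well.

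Signs changed for values close to 0. With total counts alone, MLX in the parental response was -0.038, MXI1 between starved lines -0.0038 and MAP3K6 between lines in full medium -0.037. SLC2A3 in the parental response was 0.0049 with DESeq2 size factors, 0.0030 without a filter, 0.0047 with DESeq2, 0.023 with the parental libraries alone and -0.075 to 0.056 without 1 library. ARRDC2 between starved lines was 0.053 with upper quartile scaling, 0.0205 both without a filter and with the starved libraries alone, and -0.058 to 0.0775 without 1 library. Leaving out 1 library gave ranges across 0 for the difference of responses of MXD3 (-0.43 to 0.0075), MNT (-0.089 to 0.43), ODC1 (-0.67 to 0.53), CDKN2C (-0.49 to 0.085) and ARRDC4 (-0.44 to 1.01), for the full-medium line difference of MNT (-0.31 to 0.24), AURKA (-0.67 to 0.18), RRP12 (-0.27 to 0.79), MCM5 (-0.035 to 0.46) and GADD45A (-0.15 to 0.43), and for the starved line difference of NDRG2 (-0.11 to 1.14); apart from NDRG2, the end on the other side of 0 came without a ρ0 control library. The cause was not tested.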
